A study of Mus musculus with 2 samples.

Results

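The 33 genes described here encode the enzymes and transporters of glycolysis and the genes that cells switch on when oxygen is short. They were taken by symbol from the 33696 features of a single-cell RNA sequencing series of mouse skin wounds, and all 33 were found. The series concerns cellular senescence in the slower wound repair of old age. It holds 2 libraries of cells from full-thickness dorsal wounds of 10 mm, collected 6 days after wounding from wild type male C57BL/6 mice. The young library came from mice aged 2 months and the aged library from mice aged 24 months. Neither group received any treatment beyond the wound, and the cells were not sorted. Several mice were pooled in each library and their number is not given in the sources used here. With 1 library per age, a difference between the libraries has no replicate check, no p-value is given, and the age of the mice cannot be told apart from the preparation of the library. All intervals below are 95% intervals that cover counting error only.

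Glycolysis splits glucose into pyruvate. Glucose enters through transporters, hexokinases trap it as a phosphate, phosphofructokinase commits it to breakdown, and the lower steps of the pathway yield ATP and pyruvate. When oxygen is short, or in leukocytes and dividing cells that rely on glycolysis even in air, pyruvate is reduced to lactate and exported by monocarboxylate transporters. The transcription factor subunit HIF-1α, encoded by Hif1a, is marked for destruction by the prolyl hydroxylases while oxygen is present. Once stabilised by hypoxia it binds DNA at core letters such as ACGTG. It then raises transcription of most of the genes named here, the hydroxylase gene Egln3 among them. Wounds are known for low oxygen and high lactate, and neutrophils are known for living largely on glycolysis. HIF-1α is controlled mainly through its protein, so the level of Hif1a mRNA is a poor guide to its activity.

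The letters ACGTG or their reverse complement CACGT were searched in the 250 bases upstream of RefSeq start sites of the GRCm38.p6 build. RefSeq windows matched 30 of the 33 genes. Slc2a3, Ndufa4l2 and Ndrg1 had no entry. At least 1 window held the motif for 19 of those 30 genes, or 63.3%, against 18.5% of all 27025 genes in the table. The windows of 6 genes on which the results below turn are shown 5′ to 3′ on the strand of the gene, ending at the base before the start site, with every match in capitals. They are given so that the letters can be seen beside the levels, and a match is a description of the sequence, not evidence of binding. Car9 lies at chr4:43506776-43507025 on the plus strand, Ankrd37 at chr8:45999851-46000100 on the minus strand, Egln3 at chr12:54203875-54204124 on the minus strand, Pgk1 at chrX:106186850-106187099 on the plus strand, Slc16a3 at chr11:120948817-120949066 on the plus strand and Hk2 at chr6:82774455-82774704 on the minus strand.
Car9: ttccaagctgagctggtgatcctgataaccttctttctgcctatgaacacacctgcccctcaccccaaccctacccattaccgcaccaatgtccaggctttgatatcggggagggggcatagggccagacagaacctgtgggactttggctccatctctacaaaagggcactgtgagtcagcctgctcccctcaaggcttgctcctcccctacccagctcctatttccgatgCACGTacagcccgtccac
Ankrd37: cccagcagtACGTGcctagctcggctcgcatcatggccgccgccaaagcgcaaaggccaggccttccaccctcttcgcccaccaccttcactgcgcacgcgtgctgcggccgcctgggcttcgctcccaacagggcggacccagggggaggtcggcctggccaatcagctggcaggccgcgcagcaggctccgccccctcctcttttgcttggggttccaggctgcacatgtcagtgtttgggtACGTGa
Egln3: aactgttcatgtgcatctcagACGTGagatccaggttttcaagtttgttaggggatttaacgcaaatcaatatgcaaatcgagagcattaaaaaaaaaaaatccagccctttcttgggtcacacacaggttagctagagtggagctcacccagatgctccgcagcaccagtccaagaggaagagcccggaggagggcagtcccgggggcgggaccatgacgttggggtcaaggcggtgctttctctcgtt
Pgk1: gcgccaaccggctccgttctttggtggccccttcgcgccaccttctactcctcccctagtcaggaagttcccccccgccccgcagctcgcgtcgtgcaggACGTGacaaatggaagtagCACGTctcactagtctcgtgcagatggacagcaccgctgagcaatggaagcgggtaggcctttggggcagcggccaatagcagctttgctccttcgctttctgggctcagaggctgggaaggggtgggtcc
Slc16a3: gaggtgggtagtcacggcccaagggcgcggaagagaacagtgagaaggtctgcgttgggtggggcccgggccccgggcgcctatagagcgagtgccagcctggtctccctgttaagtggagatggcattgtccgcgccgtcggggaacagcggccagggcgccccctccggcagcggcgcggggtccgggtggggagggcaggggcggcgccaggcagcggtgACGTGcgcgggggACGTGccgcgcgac
Hk2: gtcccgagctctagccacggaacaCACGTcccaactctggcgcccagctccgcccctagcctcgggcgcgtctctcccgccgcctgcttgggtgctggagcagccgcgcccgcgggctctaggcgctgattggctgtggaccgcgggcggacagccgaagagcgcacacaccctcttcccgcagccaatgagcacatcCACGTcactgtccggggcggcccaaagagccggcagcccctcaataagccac
The Car9 window had 1 match, whose first base lay 18 bases before the start site. Pgk1 had 2 matches, 150 and 131 bases before it, and Slc16a3 had 2 at 27 and 14 bases. Ankrd37 had 2 matches, 241 and 6 bases before its start site, Hk2 had 2 at 226 and 52 bases, and Egln3 had 1 at 229 bases. Among the members without a match to these letters in any window were Gapdh, Eno1, Tpi1, Hk1, Pfkp and Pfkfb4. Other forms of the binding site were not searched.

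The libraries held 4932 young and 4379 aged barcodes with 111810068 and 107865898 unique molecular identifiers (UMIs, each standing for 1 captured mRNA molecule), and 4661 and 4210 cells passed the filters. Cells were gated on the summed level of fixed marker genes, none of them a member, and a gate of this kind is a range of a score and not a cell type. The neutrophil gate (S100a8, S100a9, Csf3r and 4 more) held 1411 young and 976 aged cells, the macrophage and monocyte gate (Adgre1, Csf1r, C1qa and 8 more) 726 and 1163, and the fibroblast gate (Col1a1, Dcn, Pdgfra and 4 more) 1580 and 1476. All markers of each gate were detected in its own cells, and 10 young and 10 aged neutrophils, 34 and 52 macrophages and 3 and 2 fibroblasts scored near the limit. Median depth per cell was 5611 and 4332.5 UMIs in neutrophils, 16522 and 12757 in macrophages and 41980.5 and 49785.5 in fibroblasts. The libraries shared 3 barcodes. The doublet caller marked 3 young and 2 aged cells, far too few for it to have worked, and doublets may remain. Levels are UMIs of a gene over all UMIs of its class, scaled to counts per 1000000 (CPM). Each UMI is 1 mRNA end whatever the length of the gene, so levels are not divided by length, and whether unspliced reads were counted is not given in the sources used here.

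The 3 main classes differed in the share that each isoform took of its family. Shares of a family given below count only its genes among the 33. Of the 33, 19 had their highest level in the same class in both libraries when neutrophils, macrophages, fibroblasts, T and NK cells, dendritic cells and endothelial cells were compared. Neutrophils were highest for 8 of these, macrophages for 6, fibroblasts for 4 and T and NK cells for 1. The same count was not made over all genes, so it is a description and sets the members apart from no other genes. Some leads over the next class were small, such as 1.04-fold for Pfkl in the young and 1.05-fold for Pgk1 in the aged library.

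Of the glucose transporter genes, Slc2a3, which encodes the high-affinity neuronal and leukocyte transporter GLUT3, differed most in level between the classes. In neutrophils it was at 205 CPM in young and 482 CPM in aged cells, against 2.54 and 4.68 CPM in macrophages and 8.37 and 7.20 CPM in fibroblasts. Neutrophils held 72.5% and 76.4% of all Slc2a3 UMIs of the 2 libraries, although they held 10.1% and 4.76% of all UMIs. Slc2a1, the widely used transporter GLUT1, was spread more evenly, at 254 and 289 CPM in neutrophils, 203 and 170 CPM in macrophages and 93.7 and 82.0 CPM in fibroblasts.

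The hexokinases, which phosphorylate glucose on entry, were split by class. Hk2, the inducible and mitochondria-associated form, made up 95.6% and 94.9% of hexokinase UMIs in fibroblasts, 72.2% and 64.3% in macrophages and 59.6% and 46.4% in neutrophils. Hk3, a form known from myeloid cells, was 17.4% and 22.0% of hexokinase UMIs in neutrophils and 0.117% and 0.213% in fibroblasts. In endothelial cells the housekeeping form Hk1 led instead, with 71.8% and 78.5%. Fibroblast Hk2 stood at 786 and 659 CPM, above the 420 and 342 CPM of macrophages and the 257 and 299 CPM of neutrophils. Among phosphofructokinases, the enzymes of the committing step, the platelet form Pfkp held 81.6% and 87.0% of UMIs in neutrophils and 68.7% and 69.5% in fibroblasts, and the muscle form Pfkm was at or under 5.36 CPM in all 3 classes.

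The genes of lactate export and oxygen sensing showed the same kind of division. Slc16a3, the lactate exporter MCT4, gave 98.8% of monocarboxylate transporter UMIs in neutrophils of both libraries and 83.0% and 81.2% in macrophages. In fibroblasts it gave 35.4% and 42.8%, the rest being Slc16a1, the transporter MCT1 that also takes lactate up. Egln3, the hydroxylase PHD3 that is itself induced by HIF, held 90.0% and 93.3% of the joint UMIs of Egln3 and Egln1 in neutrophils. Its share was 55.4% and 54.9% in macrophages and 17.8% and 16.2% in fibroblasts. Egln2, a related gene of the wider list described below, was not counted in these shares. Egln1, the hydroxylase PHD2 that sets HIF-1α stability in most cells, made up the remainder. The plot of isoform shares sets the classes and libraries side by side.

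**Figure D1:**
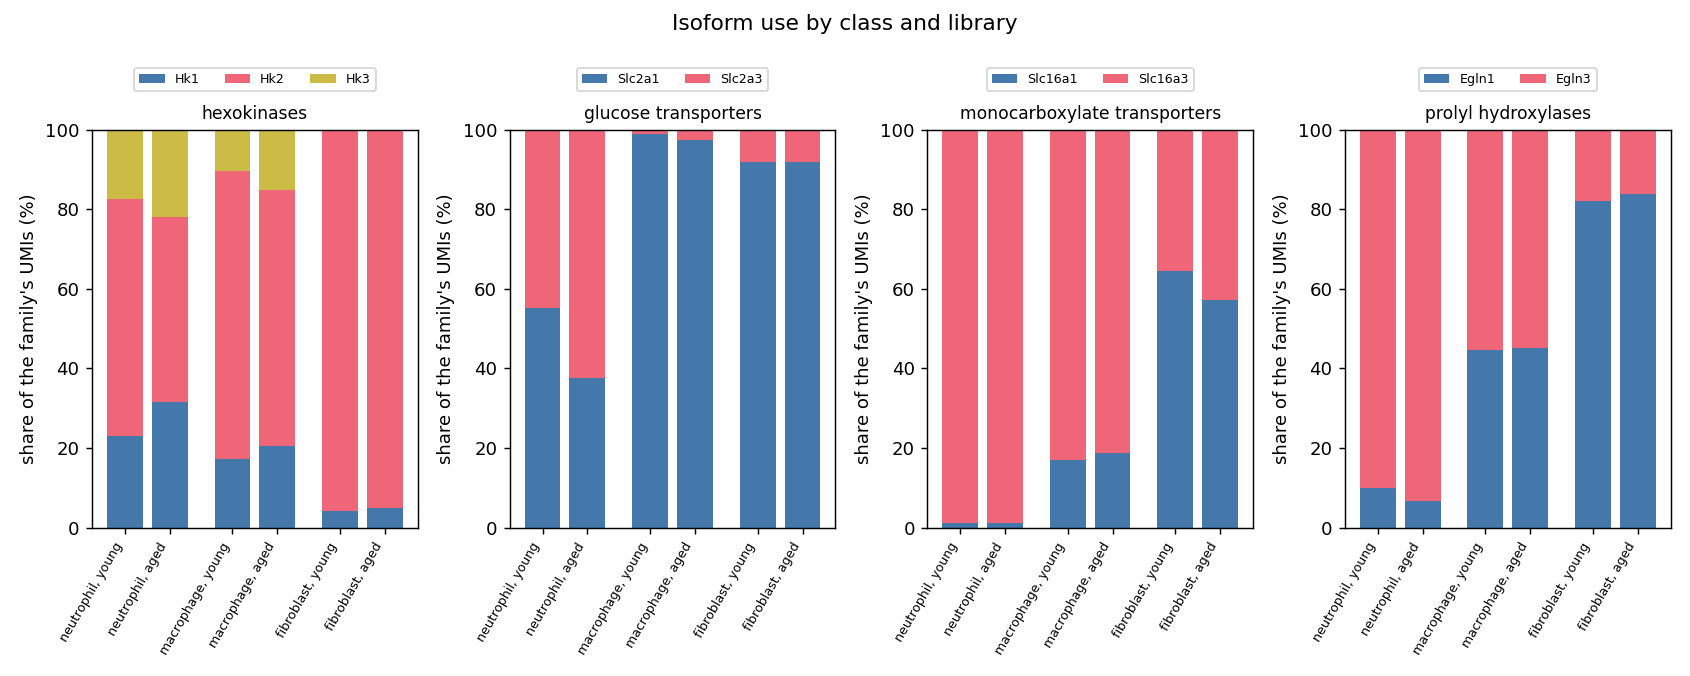
Share of a family's UMIs (%, vertical axis) taken by each isoform in neutrophils, macrophages and fibroblasts of the young and aged libraries, 1 stacked bar per class and library. Slc2a3 is 44.7% of glucose transporter UMIs in young and 62.5% in aged neutrophils and at most 8.20% in macrophages and fibroblasts.

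Of the hypoxia-induced genes outside glycolysis, 2 were largely fibroblast genes. Ndufa4l2, a mitochondrial protein that damps complex I, was at 104 and 155 CPM in fibroblasts, which held 93.3% and 97.0% of its UMIs, against 1.52 and 3.52 CPM in neutrophils. Ndrg1, a stress-response gene induced by hypoxia and by iron loss, was at 886 and 747 CPM in fibroblasts, with 89.0% and 88.6% of its UMIs there. Fibroblasts held 63.6% and 71.7% of all UMIs, so both genes were concentrated beyond the class's own share. Ero1a, an oxidase for protein folding, and Bnip3, a mitophagy receptor, ran the other way: Ero1a was at 566 and 888 CPM in neutrophils and 112 and 122 CPM in fibroblasts, and Bnip3 at 205 and 279 CPM against 67.0 and 74.7 CPM. Hif1a was at 448 and 492 CPM in neutrophils, 795 and 760 CPM in macrophages and 783 and 713 CPM in fibroblasts, and highest in T and NK cells at 1517 and 983 CPM.

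**Figure D2:**
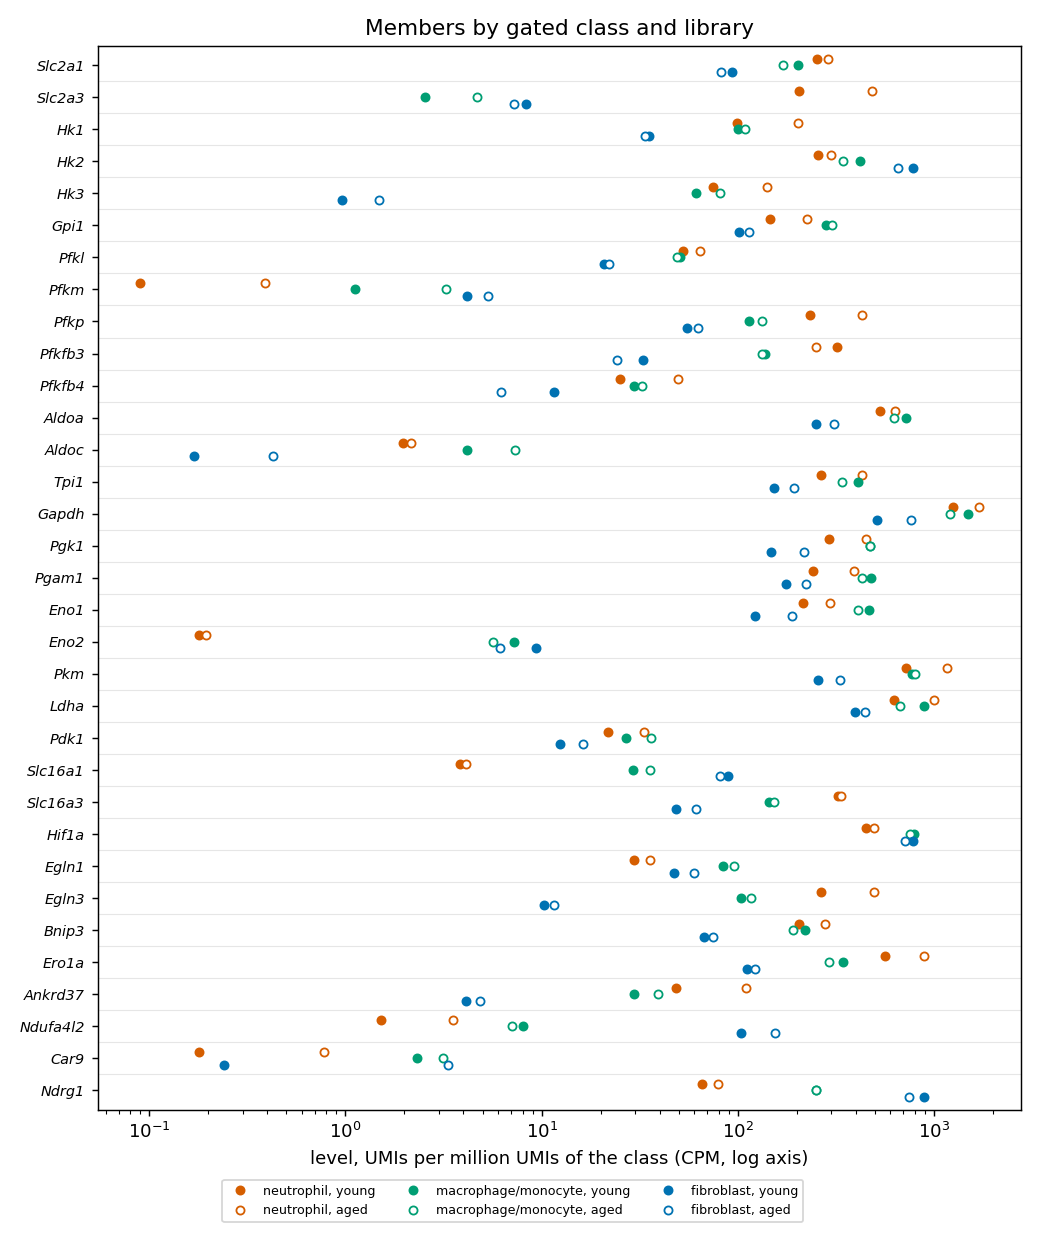
Level of each of the 33 members (CPM, log axis) in neutrophils, macrophages/monocytes and fibroblasts, filled points for the young and open points for the aged library. Slc2a3 stands apart in neutrophils, Ndufa4l2 and Hk2 in fibroblasts, and the shared enzymes such as Gapdh and Pgk1 are lower in fibroblasts than in either leukocyte class.

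Between the ages, more members passed the fold used in neutrophils than in macrophages or fibroblasts. The difference between the classes was not tested. Of 28 members with at least 50 UMIs over both libraries, 15 were higher in the aged library by 1.5-fold or more and 0 were lower. Among all 8051 genes measured in neutrophils 20.6% were higher and 8.32% lower by that fold. The median log2 ratio of aged to young was 0.62 over the members and 0.20 over all genes. The members that did not reach 50 UMIs were Pfkm, Aldoc, Eno2, Ndufa4l2 and Car9. The count depends on the scaling: with TMM factors, which moved the median of all genes to 0.00 and that of the members to 0.42, 7 members were higher, against 11.7% of all genes.

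Slc2a3 differed most, from 205 CPM in young to 482 CPM in aged neutrophils, a ratio of 2.34 (interval 2.21 to 2.48). Cells were then thinned to 2000 UMIs, and cells with fewer were left out of the thinned shares in every class. In neutrophils 96 of 1411 young and 89 of 976 aged cells were left out in this way. A Slc2a3 UMI was found in 20.9% (18.7 to 23.2) of the 1315 young and 41.1% (37.9 to 44.5) of the 887 aged neutrophils thinned. Before thinning 39.4% and 54.7% of all neutrophils had one. The thinned shares in macrophages were 0% (0 of 705 cells, interval up to 0.522%) and 0.819%, far below those of neutrophils. The amount of free RNA in the droplets was not estimated. Slc2a1 stayed under the fold used: its 254 and 289 CPM gave a ratio of 1.14, or 0.992 with TMM factors.

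In upper glycolysis 6 of the 10 measured members were higher in aged neutrophils, against 20.6% of all genes, and 4 of 10 with TMM factors, where Tpi1 (1.41) and Gpi1 (1.34) were under the fold. Hk1 was at 99.2 CPM in young and 204 CPM in aged cells (2.06, interval 1.89 to 2.24) and Hk3 at 75.1 and 142 CPM (1.89, 1.71 to 2.09), whereas Hk2 was at 257 and 299 CPM (1.16). Pfkp was at 234 and 430 CPM (1.84, 1.74 to 1.94), and Tpi1, the triose phosphate isomerase, at 265 and 430 CPM (1.62, 1.53 to 1.71). The PFKFB enzymes make and break fructose 2,6-bisphosphate, the main activator of phosphofructokinase. Of the 2 members that encode them, Pfkfb4 passed the fold and Pfkfb3 did not. Pfkfb4 was at 25.2 CPM in young and 49.6 CPM in aged cells (1.97, 1.66 to 2.34), whereas Pfkfb3, the form with the higher kinase activity, was at 322 and 252 CPM (0.782, 0.733 to 0.833). Aldoa, the main aldolase, was at 529 and 632 CPM (1.19).

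In lower glycolysis 3 of 5 measured members were higher, and 2 of 4 in the pyruvate and lactate group, against 20.6% of all genes. With TMM factors 0 of 5 and 0 of 4 passed the fold, against 11.7%. Pkm, pyruvate kinase, was at 719 CPM in young and 1163 CPM in aged cells (1.62, 1.57 to 1.67), and Pgam1, the phosphoglycerate mutase, at 242 and 394 CPM (1.63, 1.54 to 1.72). Gapdh, the glyceraldehyde phosphate dehydrogenase and the most abundant member of the group, was at 1257 and 1690 CPM, a ratio of 1.34 that stayed under the fold used. Ldha, the lactate dehydrogenase subunit that favours lactate formation, was at 625 and 1000.4 CPM (1.60, 1.54 to 1.66), while Slc16a3, the exporter, was at 326 and 337 CPM (1.04, and 0.902 with TMM factors).

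Among the oxygen-regulated genes 1 of 3 measured members of the HIF subunit and hydroxylase group, Egln3, and 2 of 4 other hypoxia-induced members, Ankrd37 and Ero1a, were higher, against 20.6% of all genes. The hydroxylase Egln1 (1.21), Bnip3 (1.36) and Ndrg1 (1.196) did not pass the fold. Egln3 was at 266 CPM in young and 498 CPM in aged cells (1.87, 1.77 to 1.97), and its thinned share of cells was 29.1% and 44.6% (unthinned 46.4% and 57.5%), against 1.49% and 2.50% of fibroblasts. Ankrd37, an ankyrin-repeat gene and direct HIF-1 target, was at 48.7 and 110 CPM (2.26, 2.01 to 2.55), with thinned shares of 8.59% and 15.6% (unthinned 22.8% and 26.9%). Ero1a was at 566 and 888 CPM (1.57, 1.51 to 1.63). Hif1a itself was at 448 and 492 CPM, a ratio of 1.10 that became 0.957 with TMM factors. The 12 members with intervals wholly beyond 1.5-fold were Slc2a3, Ankrd37, Hk1, Pfkfb4, Hk3, Egln3, Pfkp, Pgam1, Tpi1, Pkm, Ldha and Ero1a. With TMM factors the first 7 stayed past the fold, and the other 5 did not, at 1.42 for Pgam1, 1.41 for Tpi1 and for Pkm, 1.39 for Ldha and 1.37 for Ero1a.

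**Figure D3:**
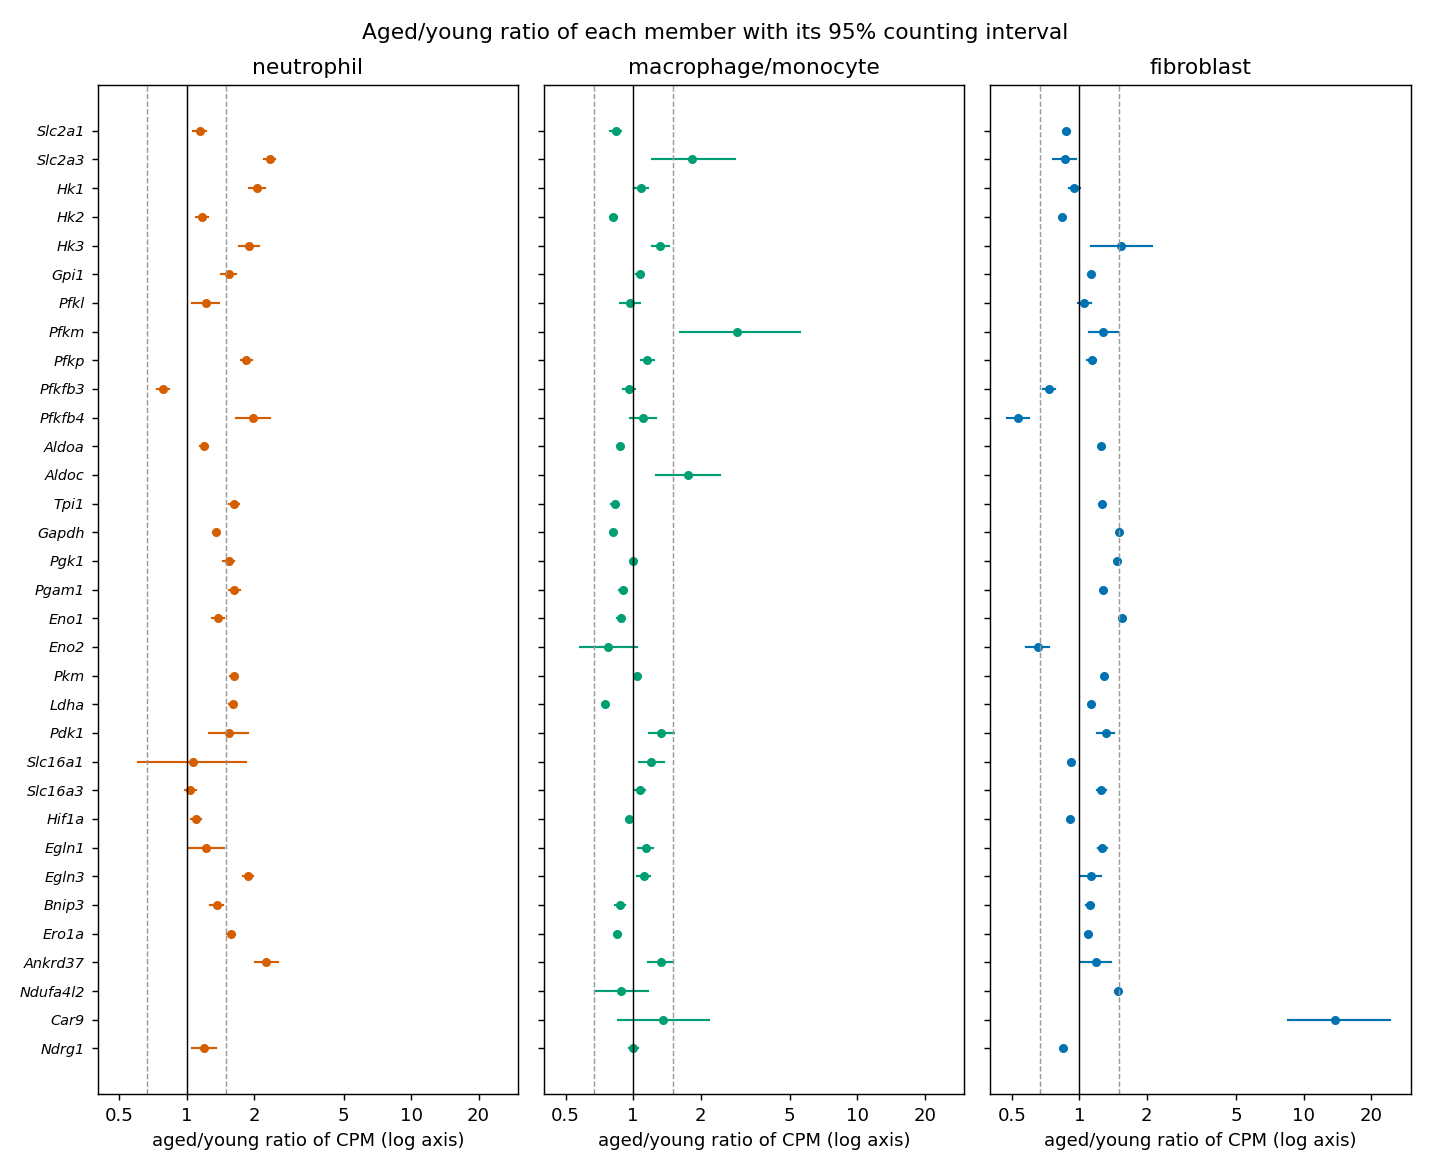
Ratio of aged to young level (log axis) of each member with at least 50 UMIs, as points with 95% counting intervals, in neutrophils, macrophages/monocytes and fibroblasts. The solid line marks a ratio of 1 and the dashed lines 1.5-fold in either direction, and 15 neutrophil points lie at or right of the upper dashed line against 3 macrophage and 4 fibroblast points.

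The neutrophil subsets were present in other proportions in the 2 libraries. A subset with Ccl3, Ccl4 and Tnf held 878 young and 253 aged cells, a subset defined by Thbs1 alone, and left unnamed for that reason, 184 and 598, and 349 and 125 cells fell in neither. Over 27 members measured in all 3 subsets, 18 had a ratio above 1 in each subset, against 35.4% of the 4170 genes measured in all 3. Hif1a, Pfkfb3 and Slc16a3 had a ratio below 1 in each, against 18.6% of genes. Slc2a3 ran from 178 to 348 CPM in the Ccl3 Tnf subset (ratio 1.96), from 214 to 531 CPM in the Thbs1 subset (2.48) and from 327 to 539 CPM in the remainder (1.65). Egln3 ratios were 1.73, 1.75 and 1.51 in the same order, Hk1 ratios 2.22, 1.63 and 1.98, and Pfkfb4 ratios 1.53, 2.03 and 2.56. The other 6 members had ratios on both sides of 1 among the subsets, such as Eno1, Ndrg1 and Egln1, which in the Thbs1 subset were at 0.907, 0.775 and 0.786. Within the Ccl3 Tnf subset 18 of 27 members were higher and 0 lower (24.2% and 10.2% of all genes there), within the Thbs1 subset 7 and 0 (17.1% and 15.4%), and in the remainder 9 and 0 (22.2% and 14.7%).

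Most members were higher in the cells in neither subset than in the Ccl3 Tnf subset. In that comparison 22 of 27 members were 1.5-fold or more higher in both libraries and 0 lower, against 25.8% and 4.62% of all genes. The summed level of lower glycolysis genes in these was 4306 CPM in the young library and 5743 CPM in the aged, against 2306 and 3647 CPM in the Ccl3 Tnf subset and 3141 and 3880 CPM in the Thbs1 subset. The Thbs1 subset exceeded the Ccl3 Tnf subset in both libraries for 2 members, Hk2 and Hif1a, and was below it for 0 (8.08% and 2.33% of all genes).

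Other measures also differed between the libraries in neutrophils. The neutrophil markers summed to 87647 CPM in young and 53937 CPM in aged cells, with S100a8 at 31965 and 18528 CPM and S100a9 at 48663 and 30477 CPM. A smaller share of the pooled UMIs of aged neutrophils thus went to these genes. Markers of macrophages summed to 375 and 431 CPM and those of fibroblasts to 282 and 230 CPM in the neutrophil gate. Their part in the result was not tested. Genes of the dissociation stress response had a median log2 ratio of -0.08 there, with 2 higher and 3 lower of 15.

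In macrophages and monocytes few members passed the fold. All 33 were measured, 3 were higher in the aged library and 0 lower, against 14.8% and 4.23% of all 11203 genes. The median log2 ratio was 0.0046 over the members and 0.22 over all genes, and with TMM factors -0.21 and 0.01. TMM shifts every gene of a class by the same amount, so the gap between the 2 medians is the same under both. The 3 were Pfkm at 1.12 and 3.26 CPM (2.90, interval 1.62 to 5.53, on 15 and 55 UMIs), Slc2a3 at 2.54 and 4.68 CPM (1.84) and the minor aldolase Aldoc at 4.19 and 7.34 CPM (1.75), all at low levels.

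Among the abundant enzymes, Ldha, Gapdh and Tpi1 had ratios below 1 in aged macrophages and Pkm and Pgk1 ratios close to 1. Ldha was at 896 CPM in young and 670 CPM in aged cells (0.748, interval 0.729 to 0.768), and with TMM factors its ratio was 0.646, past the fold. Gapdh was at 1499 and 1216 CPM (0.811) and Tpi1 at 412 and 341 CPM (0.829). Hk2 was at 420 and 342 CPM (0.815), Slc2a1 at 203 and 170 CPM (0.835) and Ero1a at 343 and 292 CPM (0.852). Hif1a was at 795 and 760 CPM (0.956), Pgk1, which makes the first ATP of the pathway, at 474 and 472 CPM (0.997), and Pkm at 770.3 and 800.2 CPM (1.04, and 0.896 with TMM factors). Ankrd37, Hk3 and Pdk1, the kinase that keeps pyruvate out of the mitochondria, had ratios of 1.33, 1.32 and 1.34.

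Members also differed between macrophage subsets. Cells high in the complement genes C1qa, C1qb and C1qc and in Mrc1 numbered 405 young and 656 aged, and cells in no subset 166 and 294. The cells in no subset exceeded the C1q cells by 1.5-fold or more in both libraries for 20 of 29 members and were below them for 2, Hk3 and the neuronal enolase Eno2, against 8.62% and 8.61% of all genes. Pgk1 was at 848 and 852 CPM in the former and 286 and 303 CPM in the latter, and Egln3 at 248 and 338 CPM against 53.1 and 42.2 CPM. Cells with Mmp12, Il1a and Areg (62 and 79) exceeded the C1q cells for 13 of 28 members and were below them for 4, against 5.68% and 16.4% of all genes, and Ly6c2 Plac8 Ccr2 cells (66 and 104), the pattern of newly arrived monocytes, for 7 and 2 of 28, against 9.88% and 15.4%.

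Within the subsets the ages were compared again, with no test of the difference between subsets. In the Ly6c2 Plac8 cells 14 of 26 members were lower in the aged library and 0 higher, against 6.63% and 18.9% of all genes. Ldha was at 1128 and 622 CPM there (0.551, interval 0.501 to 0.606), Gpi1, the glucose phosphate isomerase, at 365 and 175 CPM (0.479) and Bnip3 at 212 and 89.9 CPM (0.424). In C1q cells 3 of 32 were higher and 1 lower (14.3% and 3.97% of all genes), in Mmp12 Il1a Areg cells 3 and 1 of 26 (20.1% and 5.71%), and in the cells of no subset 4 and 2 of 29 (19.4% and 3.87%). The member lower in C1q cells was Ero1a, at 215 and 134 CPM (0.624). Neutrophil markers summed to 979 CPM in young and 598 CPM in aged macrophages, and their part in these values was not tested.

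In fibroblasts, 32 members were measured, Aldoc being the exception. In the aged library 4 were higher and 2 lower, against 9.39% and 6.32% of all 15940 genes, and the median log2 ratio was 0.18 over the members and 0.09 over all genes. With TMM or DESeq2 scaling 1 member, Car9, was higher, against 7.65% and 7.57% of all genes. The group with the largest summed difference was lower glycolysis, at 1223 CPM in young and 1735 CPM in aged cells (1.42). Eno1, the main enolase, was at 122 and 188 CPM (1.55, interval 1.51 to 1.59), Gapdh at 510.2 and 767 CPM (1.504, 1.48 to 1.52), Pgk1 at 148 and 218 CPM (1.47, 1.44 to 1.51) and Pkm at 258 and 332 CPM (1.29). The reads of Eno1 may be shared with its near-identical copy Eno1b, which had far fewer UMIs. Of the entry steps, Hk2 was at 786 and 659 CPM (0.839) and Slc2a1 at 93.7 and 82.0 CPM (0.875), both with ratios below 1. Aldoa, further down the pathway, was at 250 and 311 CPM (1.24).

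Of the members that regulate fructose 2,6-bisphosphate, Pfkfb4 was lower in aged fibroblasts by the fold used and Pfkfb3 by less than that. Pfkfb4 was at 11.6 CPM in young and 6.21 CPM in aged cells (0.534, interval 0.476 to 0.598), and Pfkfb3 at 33.1 and 24.2 CPM (0.733, 0.690 to 0.780). Pfkfb1, a related gene of the wider list, was at 0.607 and 1.09 CPM (1.79, 1.23 to 2.65). Eno2 was the other member lower by the fold used, at 9.42 and 6.13 CPM (0.651). Hk3 was counted as higher at 0.960 and 1.48 CPM (1.54), a level far under that of either leukocyte class.

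Of the lactate and oxygen genes in fibroblasts, Ldha was at 395 and 446 CPM (1.13), Slc16a3 at 48.7 and 61.1 CPM (1.26) and Egln1 at 47.2 and 59.8 CPM (1.27). Hif1a was at 783 and 713 CPM (0.910) and Ndrg1 at 886 and 747 CPM (0.843). Ndufa4l2 was at 104 and 155 CPM (1.49, 1.45 to 1.53), although its thinned share of cells was 14.4% (12.6 to 16.2) and 16.3% (14.4 to 18.3), with unthinned shares of 54.0% and 50.7%, against 0.152% and 0.338% of thinned neutrophils. The ratio of these thinned shares was 1.13, and 1.39 when cells were thinned to 1000 UMIs.

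Car9, the cell-surface carbonic anhydrase that exports acid and a textbook mark of hypoxic cells, had the largest ratio of the members measured in the 3 main classes. It was at 0.240 CPM in young and 3.33 CPM in aged fibroblasts, a ratio of 13.9 (interval 8.50 to 24.2) on 17 and 257 UMIs. In the unthinned cells 8 of 1580 young fibroblasts, or 0.506% (0.219 to 0.995), and 55 of 1476 aged fibroblasts, or 3.73% (2.82 to 4.82), had a Car9 UMI. Thinned to 2000 UMIs the shares were 0% (the floor of 3 counts being 0.195%) and 0.208%, too low to read a change. Neutrophils had 2 and 4 Car9 UMIs, or 0.179 and 0.781 CPM, so the young fibroblast level was near that of a class with almost none. The 10 aged cells with the most UMIs held 54.9% of the 257, so the level rested on few cells. Macrophages had 31 and 53 UMIs, at 2.32 and 3.14 CPM (1.35, interval 0.853 to 2.18).

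The fibroblast subsets differed in the mRNA levels of glycolysis genes in both libraries. Cells with Acta2, Tagln, Crabp1, Prss35 and Lrrc15, the first 2 of which are contractile genes of myofibroblasts, numbered 75 young and 108 aged, and Pi16 Dpp4 Sema3c cells, a pattern known from the fascia and adventitia, 287 and 291. The former exceeded the latter by 1.5-fold or more in both libraries for 18 of 30 members and were below them for 2, Hk2 and Slc16a1, against 17.2% and 11.6% of all genes. The ratio between these subsets was 8.94 in the young and 6.12 in the aged library for Egln3, 3.58 and 4.77 for Slc16a3 and 2.84 and 2.41 for Gapdh. Of the hexokinases, Hk2 had ratios of 0.498 and 0.437, whereas Hk1 had 1.99 and 1.69.

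A second comparison used the same Acta2 Crabp1 cells against another subset, so the 2 counts are not independent. Compared with Cxcl14 C7 Cilp cells (145 and 133), Acta2 Crabp1 cells were higher for 19 of 28 members and lower for 1, Hk2, against 17.7% and 10.7% of all genes. Cycling cells with Top2a and Mki67 (61 and 120) exceeded Pi16 Dpp4 cells for 16 of 30 members and were below them for Hk2 and Slc16a1, against 20.7% and 11.1%. Hk2 was at 442 and 391 CPM in Acta2 Crabp1 cells, 424 and 445 CPM in cycling cells, 887 and 894 CPM in Pi16 Dpp4 cells and 927 and 1191 CPM in Cxcl14 C7 Cilp cells. Ndrg1 was lowest in cycling cells, at 468 and 509 CPM, and highest in Cxcl14 C7 Cilp cells, at 1051 and 1192 CPM.

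**Figure D4:**
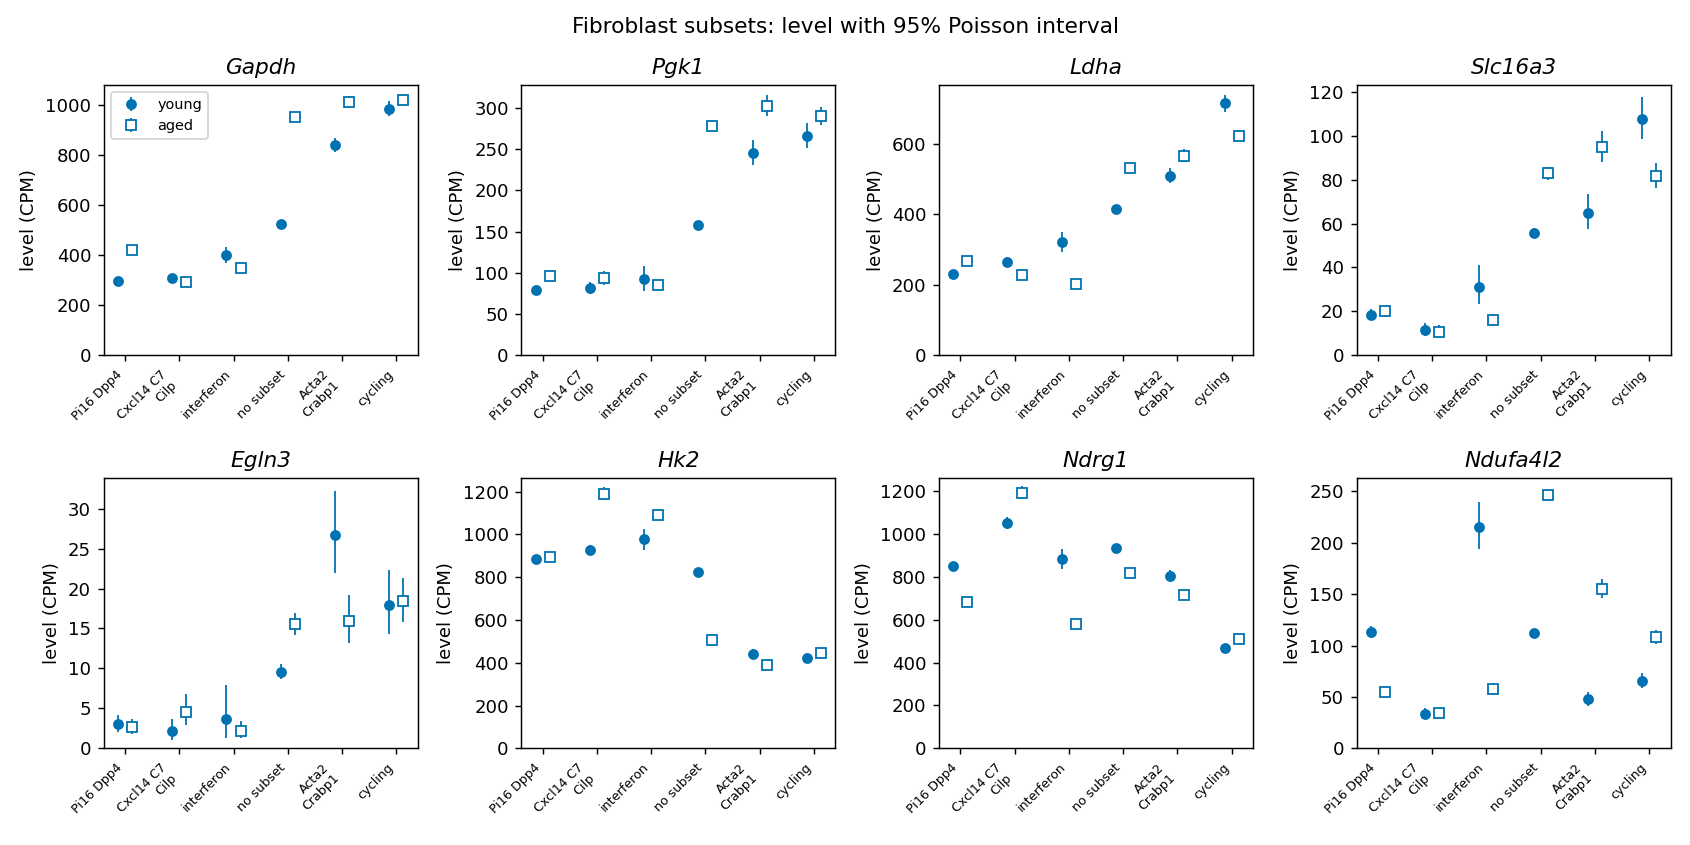
Level (CPM) of 8 members in 6 fibroblast subsets, filled circles for the young and open squares for the aged library, with 95% Poisson intervals. Gapdh, Pgk1, Ldha, Slc16a3 and Egln3 are high in Acta2 Crabp1 and cycling cells, where Hk2 is low. In the cells of no subset Gapdh, Pgk1, Egln3 and Ndufa4l2 are higher and Hk2 is lower in the aged library by 1.5-fold or more.

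Of the fibroblast subsets, the cells assigned to none (911 young and 649 aged) had the most members past the fold between the ages. There 11 of 32 members were higher and 3 lower, against 9.49% and 7.37% of all genes. Gapdh was at 523 and 952 CPM (1.82), Eno1 at 126 and 244 CPM (1.93), Pgk1 at 158 and 278 CPM (1.76) and Ndufa4l2 at 112 and 246 CPM (2.20, interval 2.12 to 2.28). Hk2 was at 824 and 507 CPM (0.615, 0.604 to 0.627). In Acta2 Crabp1 cells Gapdh was at 839 and 1013 CPM and Pgk1 at 246 and 303 CPM. In the Pi16 Dpp4 cells 0 of 30 members were higher and 3 lower (9.59% and 5.84% of all genes), in Cxcl14 C7 Cilp cells 0 and 1 of 27 (6.8% and 6.4%), and in interferon-response cells (38 and 169) 0 and 10 of 25 (14.5% and 7.22%).

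Ndufa4l2 had ratios on both sides of 1 among the subsets. It was at 47.7 CPM in young and 155 CPM in aged Acta2 Crabp1 cells (3.26, interval 2.79 to 3.81), but at 113 and 54.8 CPM in Pi16 Dpp4 cells (0.484, 0.442 to 0.531) and 216 and 58.0 CPM in interferon-response cells (0.269, 0.234 to 0.310). Acta2 Crabp1 cells had 3 members higher and 3 lower between the ages (9.52% and 6.47% of all genes), and cycling cells 2 and 2 (6.96% and 5.52%). Pfkfb4 had a ratio below 1 in each subset in which it was measured: 0.379 in Acta2 Crabp1, 0.332 in Cxcl14 C7 Cilp, 0.786 (interval 0.588 to 1.05) in Pi16 Dpp4, 0.442 in cycling and 0.651 in unassigned cells. When ratios were averaged over subsets, the median over the members in all fibroblasts was -0.01, against 0.18 for pooled cells.

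Other measures differed between the libraries in fibroblasts as well. Of 15 dissociation stress genes 7 were lower and 0 higher in the aged library, with a median log2 ratio of -0.48, and mitochondrial transcripts had a median of -0.29. Erythroid genes summed to 109 CPM in young and 2.1 CPM in aged cells and neutrophil markers to 270 and 103 CPM. Their part in the result was not tested.

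In the smaller classes the values rested on few cells. In T and NK cells (332 young and 45 aged) 25 members were measured, 1 was higher and 16 lower in the aged library, against 20.9% and 18.5% of all genes. Lower glycolysis summed to 2798 and 1687 CPM, Ldha was at 950.3 and 511 CPM, and Hif1a at 1517 and 983 CPM. The cells themselves differed: Trdc, a γδ T cell receptor gene, was seen in 224 of 332 young but 6 of 45 aged cells, Il17a was at 2908 and 85.2 CPM, and Nkg7, a cytotoxic granule gene, at 87.0 and 384 CPM. A different mixture of lymphocytes and a different level per cell cannot be told apart here.

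In endothelial cells (61 and 49) 5 of 25 members were higher and 1 lower, against 10.8% and 6.72% of all genes. Egln3 was at 18.2 and 59.8 CPM (3.29, interval 2.31 to 4.79), Ankrd37 at 23.0 and 38.4 CPM (1.67) and Egln1 at 33.2 and 52.4 CPM (1.58). In dendritic cells (32 and 76) 4 of 21 were higher and 1 lower, against 21% and 7.64% of all genes, with Ero1a at 54.4 and 176 CPM (3.23, 2.18 to 4.97) and Egln3 at 24.4 and 59.0 CPM (2.42). Egln3 thus had a ratio above 1 in neutrophils, endothelial cells and dendritic cells, and 1.13 in fibroblasts, while in macrophages its 1.11 became 0.961 with TMM factors. It was below 1 in T and NK cells (0.740, interval 0.412 to 1.25, on 140 and 16 UMIs) and in the Ly6c2 Plac8 macrophages (0.438, 0.331 to 0.578). Acta2 Crabp1 fibroblasts (0.597, 0.455 to 0.784), C1q macrophages (0.795, 0.692 to 0.912) and Pi16 Dpp4 fibroblasts (0.872, 0.528 to 1.44) were also below 1. Its ratio was above 1 in the other subsets where it had at least 50 UMIs. Cells whose highest marker score was too low for any gate numbered 173 young and 266 aged. They had 16 of 28 members higher and 0 lower, against 28.3% and 12% of all genes. When cells were clustered instead, 319 of them over both libraries fell in macrophage, 53 in fibroblast and 52 in neutrophil clusters. A further 222 young and 125 aged cells were given no class because their highest score did not lead by enough. Of these, 223 fell in macrophage, 22 in fibroblast and 38 in neutrophil clusters, and their levels are not reported separately. The gates thus leave out some cells of these classes. With cells classed by cluster, 3 macrophage members were higher and 0 lower, against 18.6% and 5.15% of all genes. Over all cells together, where the mixture of classes also differs, 4 of 33 members were higher and 0 lower, against 8.96% and 8.72% of all genes.

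Across 16 classes and subsets, the level of most members rank-correlated positively with the summed level of lower glycolysis. These points hold separate cells but share their library and differ in depth, so the rank correlations are a description. Spearman's rho in the young and aged libraries was 0.97 and 0.96 for Ldha, 0.96 and 0.97 for Tpi1, 0.84 and 0.93 for Slc16a3, 0.86 and 0.84 for Egln3 and 0.81 and 0.91 for Bnip3. It was negative in both for Hk2 (-0.46 and -0.25), Slc16a1 (-0.53 and -0.67), Ndrg1 (-0.73 and -0.44), Ndufa4l2 (-0.58 and -0.24), Eno2 (-0.63 and -0.49) and Pfkm (-0.68 and -0.44), and for Hif1a it was 0.30 and 0.05. The negative members include genes known to be induced by hypoxia, Hk2, Ndrg1 and Ndufa4l2 among them.

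A wider list of 76 genes of glycolysis, the pentose phosphate pathway, glycogen and the HIF response was set beside the members. In neutrophils 7 of 42 measured genes were higher and 0 lower, against 20.6% and 8.32% of all genes. The highest ratios were those of P4ha1, a collagen prolyl hydroxylase subunit induced by HIF, at 206 and 407 CPM (1.98, interval 1.87 to 2.10) and Zfp395 at 3.48 and 5.86 CPM (1.68), and the transketolase gene Tkt was among the lowest (0.805). In macrophages 6 of 60 were higher and 3 lower, against 14.8% and 4.23% of all genes. Their ratios ran from Zfp395 (2.59) and the glycogen phosphorylase Pygb (1.96) to the hypoxia-induced stress gene Ddit4 at 110 and 58.0 CPM (0.528) and the vasodilator peptide gene Adm at 15.1 and 6.10 CPM (0.404). In fibroblasts 6 of 66 were higher and 2 lower, against 9.39% and 6.32% of all genes, so the share of the wider list that was higher was near or below the background in each of the 3 classes. Car12, another acid-exporting carbonic anhydrase, was at 2.02 and 6.41 CPM (3.17, 2.63 to 3.85) and Eno1b at 1.30 and 2.67 CPM (2.06), while Ddit4 was at 126 and 75.7 CPM (0.602). Epas1, which encodes the sister subunit HIF-2α, had the lowest ratio in fibroblasts, at 93.5 and 33.9 CPM (0.362, 0.346 to 0.379), whereas Hif1a there stood at 0.910.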

How the data were processed

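Droplet 3′ single-cell libraries were sequenced. The authors deposited unnormalized UMI counts for 4932 young and 4379 aged barcodes, none of them under 500 UMIs. The matrices carry the mark of Cell Ranger 8.0.1, per the file headers, whereas version 9.0 of that program, with STAR, Seurat 4 and the mm10 (GRCm38) genome, is listed in the submitters' processing notes. Of the features, 1684 had identifiers absent from GENCODE M21, none of them a member, and Aldoa had 2 identifiers, which were summed.

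Cells with at least 500 UMIs, 200 genes and under 15% mitochondrial UMIs were kept, and gated by their highest scaled marker score (at least 0.15, leading by 0.1). Subsets needed a scaled score of 0.5. UMIs were summed per class and library, with exact Poisson intervals for levels, exact conditional binomial intervals for ratios and Clopper-Pearson intervals for shares, all at 95%. A floor of 3 counts was used for 0. Members with at least 50 UMIs in a class were counted at 1.5-fold. No test was possible with 1 library per age. The ratio script was tested on simulated data. Scanpy 1.11.5, edgeR 4.0.16 and DESeq2 1.42.0 were used, the last 2 for scaling only. Named genes were those with intervals beyond 1.5-fold, the member of each role with the most UMIs, and the 2 highest and 2 lowest of the wider list in each class, and the text also names members by role. One gene of the wider list that this rule names is not reported here. The members, lists and gates were chosen with earlier results of these data known. Coordinates and promoters are RefSeq's, GRCm38.p6.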

Additional observations from a re-analysis of the deposited data

Results flagged for a closer look

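Pfkfb4 had ratios of aged to young in opposite directions in neutrophils (1.97) and fibroblasts (0.534), each with an interval beyond 1.5-fold. With 1 library per age this difference between the classes was not tested.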

How the results depend on the processing

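With TMM factors 7 neutrophil, 3 macrophage and 1 fibroblast members were higher and 0, 1 and 2 lower. Of all genes 11.7%, 6.76% and 7.65% were higher and 13.5%, 7.52% and 8.03% lower. With DESeq2 size factors 7, 3 and 1 members were higher and 0, 2 and 2 lower. The shares of all genes were then 11.8%, 6.64% and 7.57% higher and 13.5%, 7.69% and 8.10% lower. These factors centre the ratios of all genes near 0, which shifts the ratios of the members down. At a fold of 2, 3, 1 and 1 members were higher and 0 fibroblast members lower. By that fold 6.11%, 3.31% and 3.36% of all genes were higher, and 2.46% were lower in fibroblasts. The mean of per-cell levels gave 10 higher in neutrophils, where pooled cells gave 15, and 5 in macrophages. The shares of all genes higher by that measure were 22.1% in neutrophils and 18.2% in macrophages. Cells classed by Leiden clusters gave 2 fibroblast members higher and 1 lower, against 8.55% and 7.61% of all genes. The mean of subset ratios, chosen after seeing the data, gave 2 higher in fibroblasts, against 7.72% of all genes. In neutrophils it gave 12 higher and 1 lower, against 19.6% and 11.9%. The cause was not tested. The aged/young ratio of shares of fibroblasts with Ndufa4l2 was 1.13 at 2000 UMIs and 1.39 at 1000 UMIs. No direction of a member counted as higher or lower in the main 3 classes turned under these settings or under filters of 2000 UMIs or 5% mitochondrial UMIs, a gate margin of 0.2 or removal of the top 4% of doublet scores. No paired analysis was possible because each age has 1 library.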

Other observations

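The aged fibroblasts with a Car9 UMI were compared with the other aged fibroblasts, a choice made after the values were seen. The 55 cells, 43 of them in no subset, had higher levels of other hypoxia-induced genes: Ndufa4l2 was at 511 CPM against 138 CPM in the 1421 cells without (ratio 3.69, interval 3.51 to 3.89), Slc16a3 at 173 against 56.0 CPM (3.09), Egln3 at 30.6 against 10.7 CPM (2.86) and Bnip3 at 196 against 69.2 CPM (2.83). Glycolytic enzymes were also higher, with Eno1 at 439 against 177 CPM (2.48), Gapdh at 1607 against 729 CPM (2.21) and Pgk1 at 457 against 207 CPM (2.21). Hk2 was lower in these cells, at 263 against 678 CPM (0.388, 0.362 to 0.414), as were Pfkfb3 (0.540) and Adm (0.352), and Ndrg1 differed little, at 793 against 745 CPM (1.06). The median depth was 55361 UMIs in cells with Car9 and 49550 in those without. Of all 1476 aged fibroblasts 649 were in no subset, and those 649 had Gapdh at 952 CPM against 767 CPM in all 1476. The part of this subset in the ratios above was not tested. The share of all genes higher in the cells with Car9 was not computed. All of these cells came from 1 library, so no test was possible.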
